A study of Mus musculus with 14 samples.

Results

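Nes-GFP low bone marrow stromal cells (BMSCs) of mice with acute myeloid leukemia (AML) were compared with the same population of normal mice, gene by gene. The comparison takes all libraries that the labels name as Nestin low, which are 10 of the 14 libraries of the series, 4 of them from AML and 6 from normal mice. Of 27099 genes in the table, 15225 had at least 10 counts in 4 or more of these 10 libraries and were tested. Nestin regulatory elements drive GFP in these mice, so that the gate sorts on the reporter and not on nestin protein. AML mice were primary, non-transplanted iMLL-AF9 mice, which carry rtTA, the doxycycline-dependent activator, and an MLL-AF9 fusion gene that it switches on. They were given doxycycline and killed once their white blood cell count showed leukemia. According to the methods, normal mice drank sucrose water as vehicle, so AML and doxycycline cannot be told apart. The paper calls the normal mice of this experiment wild-type controls. It does not say whether they carried rtTA or the fusion gene, so AML and carriage of these transgenes cannot be told apart either. Mice were 8 to 12 weeks old and of either sex, and some libraries were pools of 2 mice, without a statement of which ones. Cells had been sorted as GFP+ CD45- CD31- DAPI- after red cell lysis, and the methods add Ter119-. Because few cells were obtained, cDNA was amplified with Smart-seq2, which copies polyadenylated RNA. Nothing states that the libraries of a group are all separate mice, so p-values measure the spread between these libraries.

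Nes-GFP low cells are described as overlapping with the Lepr+ cells around marrow sinusoids, which hold hematopoietic stem cells in place with the chemokine Cxcl12 and feed them with stem cell factor (Kitl). MLL-AF9 joins a part of the histone methyltransferase MLL1, not the whole enzyme, to a part of the transcription elongation machinery and drives a leukemia of the myelomonocytic lineage. Interferons, which marrow cells make and sense, switch on antiviral and antigen presentation genes through interferon regulatory factors such as Irf7.

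The libraries held 5615941 to 11436652 counts, and 18786 to 20197 genes had a count. Neither the mean total (exact permutation test, two-sided, p = 0.219) nor the number of detected genes differed beyond the spread between libraries. Levels are given as CPM, the counts of a gene relative to the total of its library after TMM scaling, and 3 counts correspond to 0.281 to 0.508 CPM. Nes itself had 10 counts or more in 3 of the 10 libraries and was not tested. It stood at 1.63, 6.08, 0.477 and 0 CPM in AML replicates 1 to 4 and between 0 and 1.38 CPM in normal libraries. Y-linked genes (Ddx3y, Uty, Kdm5d and Eif2s3y together) were at 178 to 295 CPM and Xist at 2.19 to 5.69 CPM in AML replicates 2 and 3 and normal replicates 3 and 4. In the other 6 libraries, Y-linked genes summed to 2.75 to 11.5 CPM and Xist to 75.3 to 514 CPM. The 4 libraries with high Y-linked genes were also those with the highest sums of 22 pan-hematopoietic genes, which reached 6828 to 17330 CPM there against 430 to 2868 CPM in the other 6. Ptprc, which encodes the CD45 by which cells had been sorted out, was at 86.1 to 462 CPM in AML libraries. In normal mice it was at 486 and 492 CPM in replicates 3 and 4, but 4.0 to 8.57 CPM in the rest. Pecam1, which encodes CD31, was at 0.747 to 10.3 CPM in AML and 0.202 to 36.8 CPM in normal mice. In bulk samples, fewer cells of a type and less RNA per cell cannot be told apart. The part of blood cell RNA in the results that follow was not tested except where a value is given.

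**Figure D1:**
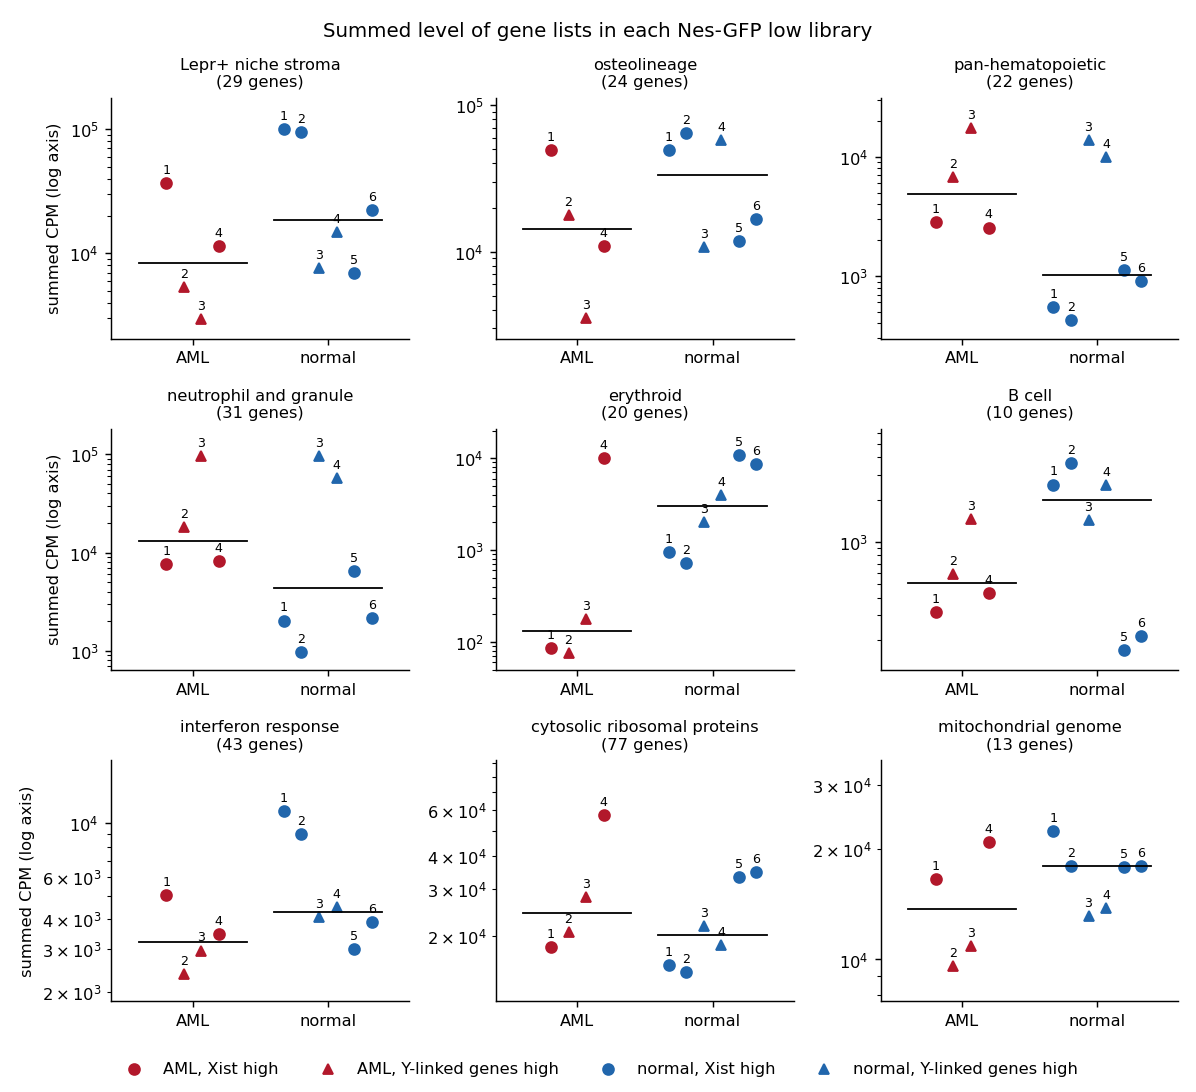
Summed CPM (log axis) of the tested members of 9 gene lists in each of the 10 Nes-GFP low libraries, AML in red and normal in blue, with the replicate number above each point and the group median as a line; triangles are libraries with high Y-linked genes. Erythroid sums are 76.0 to 176 CPM in AML replicates 1 to 3 and 10100 CPM in AML replicate 4, and for every list shown the points of both groups overlap.

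In the comparison of AML with normal Nes-GFP low BMSCs, no gene passed the threshold of an adjusted p under 0.05 in edgeR's quasi-likelihood test (0% of 15225 genes; the smallest adjusted p was 0.253). With an unadjusted p under 0.05, 192 genes (1.26%) were higher in AML and 292 (1.92%) lower; together these are 3.18% of the genes tested, where 5% would fall under that p if no gene differed. The groups did not overlap, meaning that all 4 AML libraries lay above or below all 6 normal ones, for 44 genes higher (0.289%) and 83 lower (0.545%). Some genes part in this way even where nothing differs. That share was not worked out, so neither count shows a difference by itself. DESeq2 called 11 genes higher (0.0722%) and 67 lower (0.44%) on the same libraries. Of 12 genes with the smallest p in each direction, the groups did not overlap for 9 of the higher and for all 12 of the lower, and DESeq2 called 9 and 12 of them. These genes were picked by p in the same libraries, so those counts are no separate support. With the class of Y-linked genes as a term, edgeR called 2 genes (0.0131%), BC100530 and Stfa1, both higher in AML, and with it 316 genes (2.08%) were higher with an unadjusted p below 0.05 and 296 (1.94%) lower. This term and the DESeq2 counts with it were added after the data had been seen. The class parts the libraries as their pan-hematopoietic sums do, so the term takes out spread of blood cell genes within the groups. The median log2 fold change of all genes tested was 0.01, with 50.7% of genes above 0.

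**Figure D2:**
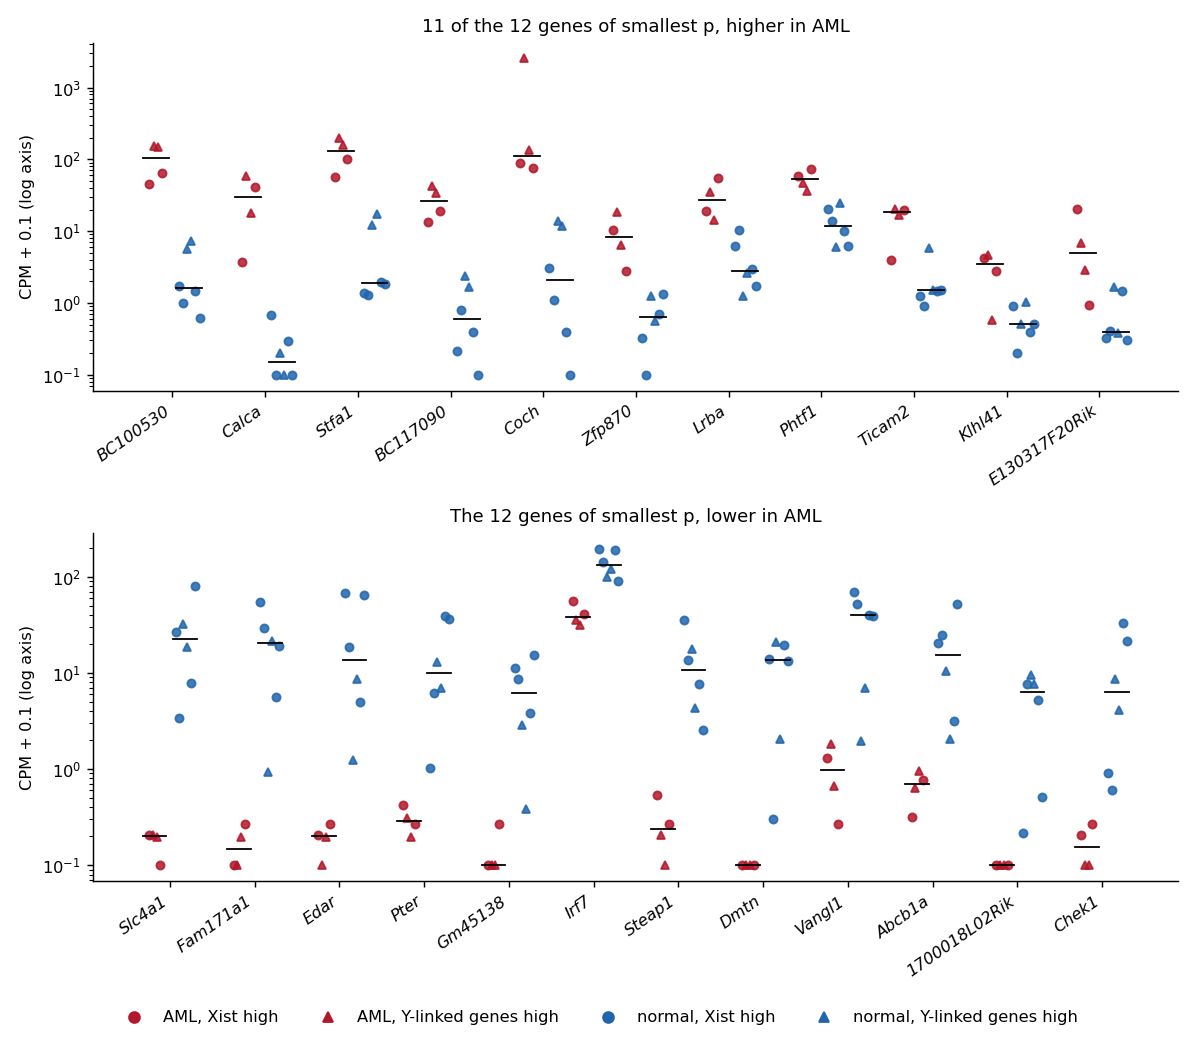
CPM + 0.1 (log axis) of 11 of the 12 genes of smallest p on the higher side and of all 12 on the lower, 1 point per library, AML in red (n = 4) and normal in blue (n = 6), with group medians as lines and triangles for libraries with high Y-linked genes. Irf7 is the one gene of the lower panel that is well above 1 CPM in every library, at 31.8 to 55.2 CPM in AML and 90.6 to 195 CPM in normal mice.

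Among the genes higher in AML, Calca was read in every AML library and was close to 0 in every normal one. Calca (chromosome 7 of GRCm38, 114631478 to 114636357, minus strand) encodes calcitonin and, by alternative splicing, the neuropeptide CGRP. It stood at 3.58, 59, 17.9 and 40.7 CPM in AML replicates 1 to 4. In normal replicates 1 to 6 it was at 0.573, 0, 0.103, 0, 0.197 and 0 CPM. The lowest AML library was thus above the highest normal one, and the AML libraries themselves spread widely. The log2 fold change was 7.61 with a standard error of 1.36 (adjusted p = 0.544 in edgeR's quasi-likelihood test, 1.1e-07 in DESeq2), and 7.10 to 8.69 when each library was left out in turn. Counts per gene do not tell the calcitonin from the CGRP transcript. Of 6 tested genes of CGRP and adrenomedullin signaling, Calca was the only one whose groups did not overlap or whose unadjusted p was under 0.05. Ramp1, which makes the receptor Calcrl respond to CGRP, was at 158, 73.3, 201 and 2.2 CPM in AML and 1.23 to 114 CPM in normal mice. Ramp2, its counterpart for adrenomedullin, was at 3.62 to 45.9 against 15.2 to 76.6 CPM, and Calcrl itself, named after its values had been seen, at 5.76 to 18.7 against 0.592 to 27 CPM. All 3 overlapped between the groups.

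The genes of smallest p on the higher side also held 3 stefin A-like genes that lie close together on chromosome 16. Stefins inhibit cysteine proteases of the cathepsin family, and those of this cluster are read in myeloid cells. BC100530 (36359382 to 36367748, minus strand) was at 45.8, 154, 146 and 64.5 CPM in AML replicates 1 to 4 and between 0.513 and 7.12 CPM in normal mice, with the highest normal levels in replicates 3 and 4. The log2 fold change of 5.16 (standard error 0.82) had an adjusted p = 0.253 in edgeR, and with the class of Y-linked genes as a term it was 5.18 with an adjusted p = 0.0106. Stfa1 was at 56.3, 197, 158 and 102 CPM in AML and 1.21 to 17.2 CPM in normal mice, without overlap. The fitted difference was 4.44 on the log2 scale (standard error 0.89, adjusted p = 0.728 in edgeR), and with that term 4.84 with an adjusted p = 0.0179. BC117090 was lower in level, at 13.5 to 41.8 CPM in AML and 0 to 2.28 CPM in normal mice (log2 fold change 4.99, standard error 1.12). The longest transcripts of BC100530 and Stfa1 were identical at 97.1% of 617 aligned bases, and those of BC117090 at 96.9% and 95.6% to each, so that reads can be divided among the copies and their single levels are uncertain. The summed neutrophil and granule genes, which include BC100530 and Stfa1, were at 7608, 18230, 95250 and 8178 CPM in AML replicates 1 to 4 and between 966 and 95670 CPM in normal mice, and their part in these values was not tested.

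Coch, which encodes the extracellular matrix protein cochlin, was at 88.8, 2535, 133 and 75.1 CPM in AML replicates 1 to 4 and between 0 and 13.9 CPM in normal mice. AML replicate 2 stood far above the rest, and the log2 fold change was 7.15 with it and 4.30 without it. Lrba, an anchor protein of vesicle traffic, was at 14.4 to 55.1 CPM in AML and 1.1 to 10.2 CPM in normal mice, and Phtf1 at 36 to 73.7 and 6.0 to 24.2 CPM. Both were higher in all 4 AML libraries, at log2 fold changes of 2.91 (standard error 0.77) and 2.02 (standard error 0.54). Zfp870, a zinc finger protein gene, was at 2.71 to 18.2 CPM in AML and 0 to 1.23 CPM in normal mice. The groups overlapped for Ticam2, an adaptor of Toll-like receptor signaling (3.91 to 20.2 CPM in AML, 0.807 to 5.79 CPM in normal mice), and for Klhl41, a muscle gene (0.477 to 4.59 and 0.101 to 0.936 CPM). Aspg, an asparaginase gene, was among the widest gaps at 11.8, 53.6, 9.16 and 32 CPM in AML, against 6.21 CPM in normal replicate 3 and 0 to 0.394 CPM in the other normal libraries.

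Among the genes lower in AML, most were at or near 0 in all AML libraries and at moderate levels in normal ones. Slc4a1 (chromosome 11, 102348824 to 102366203, minus strand), which encodes the red cell anion exchanger band 3, was at 0.109, 0.107, 0.0954 and 0 CPM in AML replicates 1 to 4. In normal replicates 1 to 6 it was at 26.5, 3.33, 32.5, 18.4, 7.69 and 80.7 CPM. All AML libraries together held 3 counts and the normal ones 1639, a ratio of 324 (95% exact interval 111 to 1575, counting error alone), with an adjusted p = 0.253 in edgeR and 3.36e-08 in DESeq2. Dmtn, which encodes dematin of the red cell cytoskeleton, had no count in any AML library and was at 14, 0.202, 21.1, 1.97, 19.6 and 13.2 CPM in normal replicates 1 to 6. Against a floor of 3 counts per AML library it was at least 32.5-fold lower in AML. Fam171a1, which encodes a membrane protein, had 2 counts in all AML libraries and was at 0.828 to 54.8 CPM in normal mice. Edar, the receptor of ectodysplasin in skin appendages, had 3 counts in AML and was at 1.1 to 67.2 CPM in normal mice. Chek1, a kinase of the DNA damage checkpoint, had 2 counts in AML, and in normal mice it was at 32.6 and 21.5 CPM in replicates 5 and 6 and 0.504 to 8.59 CPM in the others. For such genes the fitted fold change rests on the prior count, and the lowest normal libraries lie close to the AML ones.

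Pter, a phosphotriesterase-related gene, was at 0.0954 to 0.326 CPM in AML and at 0.917 to 39 CPM in normal mice. Steap1, a metalloreductase-related membrane protein gene, was at 0 to 0.434 and 2.46 to 35.5 CPM. Vangl1, of the planar cell polarity pathway, was at 1.19, 1.71, 0.572 and 0.169 CPM in AML and at 1.86 to 68.7 CPM in normal mice, where the 2 lowest values were those of replicates 3 and 4 with high Y-linked genes. Abcb1a, a drug efflux pump, was at 0.217 to 0.858 CPM in AML and 1.97 to 52.5 CPM in normal mice. Genes with a steadier level in normal mice were found among those with the widest gap between the groups. Ascc3, a helicase gene, was at 8.25, 1.6, 2.29 and 2.37 CPM in AML against 17.3 to 30.9 CPM in normal mice (log2 fold change -2.70, standard error 0.69). Capn7, a calpain protease, was at 3.2 to 24.9 against 50.6 to 102 CPM (log2 fold change -2.33, standard error 0.58). Stxbp3, a vesicle fusion gene, was at 1.86 to 26.1 against 52.2 to 98.3 CPM (log2 fold change -2.11, standard error 0.64), and Fam131a at 0.109 to 1.53 against 6.86 to 16.8 CPM. None of them passed the threshold in edgeR, while DESeq2 called Ascc3, Capn7 and Fam131a but not Stxbp3. Igkv12-46, an immunoglobulin kappa variable segment, had 2 counts in AML, and its 1131 CPM in normal replicate 1 stood far above the 2.56 to 11.3 CPM of the other normal libraries.

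Irf7 and Igtp had the smallest p among the interferon response genes, and both were lower in all 4 AML libraries. Of 43 tested members of the list, 38 had a log2 fold change below 0, the median was -0.99, and 7 were lower and none higher at an unadjusted p below 0.05. Over all genes tested the median was 0.01, and 1.92% were lower at that p. None passed the adjusted threshold in edgeR, whereas DESeq2 called 4 of the 43 as lower, against 0.44% of all genes. The list's median stayed between -1.28 and -0.62 when each library was left out in turn, and between -1.0 and -0.84 under the other scalings. The groups did not overlap for Irf7 and Igtp, against 0.545% of all genes that were lower without overlap. Summed levels did overlap, at 5050, 2366, 2962 and 3453 CPM in AML replicates 1 to 4. The normal sums were 11240, 9037, 4083, 4468, 2998 and 3881 CPM in replicates 1 to 6, highest in the libraries with most niche stroma RNA, replicates 1 and 2.

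The promoters of 4 of these genes are shown because the interferon-stimulated response element, a site bound by interferon regulatory factors, is a known feature of the family. Each line gives the 250 bases before the start of transcription in RefSeq (GRCm38.p6), 5′ to 3′ on the strand of the gene, with matches on either strand to GAAA, any 2 bases and GAAA again in capitals. Irf7 lies at chr7:141266425-141266674 (minus strand), Igtp at chr11:58199306-58199555 (plus), Rsad2 at chr12:26456453-26456702 (minus) and Cxcl10 at chr5:92348890-92349139 (minus).
Irf7: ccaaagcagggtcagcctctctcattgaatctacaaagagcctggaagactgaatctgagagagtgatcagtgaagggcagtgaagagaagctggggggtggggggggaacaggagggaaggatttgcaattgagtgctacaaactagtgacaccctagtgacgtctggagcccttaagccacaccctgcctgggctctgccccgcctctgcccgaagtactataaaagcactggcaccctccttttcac
Igtp: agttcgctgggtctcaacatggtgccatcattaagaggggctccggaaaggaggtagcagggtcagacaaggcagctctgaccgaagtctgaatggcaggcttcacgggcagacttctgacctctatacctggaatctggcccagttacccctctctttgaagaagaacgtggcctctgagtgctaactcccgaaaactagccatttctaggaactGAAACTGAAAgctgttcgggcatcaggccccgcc
Rsad2: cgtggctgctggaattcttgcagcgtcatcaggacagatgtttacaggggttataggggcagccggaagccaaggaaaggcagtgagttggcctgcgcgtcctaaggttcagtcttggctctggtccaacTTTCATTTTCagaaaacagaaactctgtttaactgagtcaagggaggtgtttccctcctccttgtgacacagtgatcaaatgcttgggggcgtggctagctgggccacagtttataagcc
Cxcl10: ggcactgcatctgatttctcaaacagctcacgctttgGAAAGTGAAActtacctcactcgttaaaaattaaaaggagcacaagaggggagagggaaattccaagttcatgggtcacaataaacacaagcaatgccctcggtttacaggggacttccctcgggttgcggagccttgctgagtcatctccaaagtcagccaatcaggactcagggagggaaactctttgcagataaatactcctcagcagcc
The motif was found once each in Igtp, Rsad2 and Cxcl10 and not in this window of Irf7. Of 37 windows of 33 list members with an entry, 16 held it (43.2%), against 978 of 32851 promoter windows (2.98%). A match describes letters and does not show a bound site.

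Irf7, the regulator that amplifies type I interferon production, was at 55.2, 35, 31.8 and 40.8 CPM in AML replicates 1 to 4. In normal replicates 1 to 6 it was at 195, 144, 99.6, 121, 188 and 90.6 CPM. Means were 40.7 ± 10.4 CPM (SD, n = 4) and 140 ± 44.0 CPM (SD, n = 6), and every AML library lay below every normal one. The log2 fold change was -1.78 (standard error 0.38), at an adjusted p = 0.776 in edgeR and 0.000112 in DESeq2, and it was -1.96 to -1.66 when each library was left out. Niche stroma sums had medians of 8419 CPM in AML and 18610 CPM in normal libraries. Pan-hematopoietic sums had medians of 4848 and 1015 CPM. Both sums overlapped between the groups. Over all alternatives, among them fits with either sum as a term, the log2 fold change of Irf7 was -1.96 to -1.56. The part of these sums in the Irf7 values was not tested beyond those fits. Igtp, an interferon-induced GTPase, was at 14.8, 2.77, 9.35 and 0.339 CPM in AML and at 26.5 to 166 CPM in normal mice (log2 fold change -3.16, standard error 0.96). Rsad2, which encodes the antiviral enzyme viperin, was at 0, 0.107, 3.43 and 0.169 CPM in AML. It was at 37, 0.504, 15.6, 66.7, 10.7 and 28.2 CPM in normal mice, where only replicate 2 came within the AML range. The chemokines Cxcl9 and Cxcl10, which draw T cells, were at 0.107 to 9.34 and 1.52 to 25.8 CPM in AML and at 2.17 to 213 and 7.65 to 364 CPM in normal mice. Normal replicate 3 was the one normal library within the AML range of either. Log2 fold changes of Rsad2, Cxcl9 and Cxcl10 were -4.79, -4.70 and -3.10, all with an adjusted p = 0.999 in edgeR. B2m, the light chain of MHC class I, was at 672 to 1725 CPM in AML and 1167 to 4079 CPM in normal mice, with overlap (log2 fold change -0.96, standard error 0.47).

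**Figure D3:**
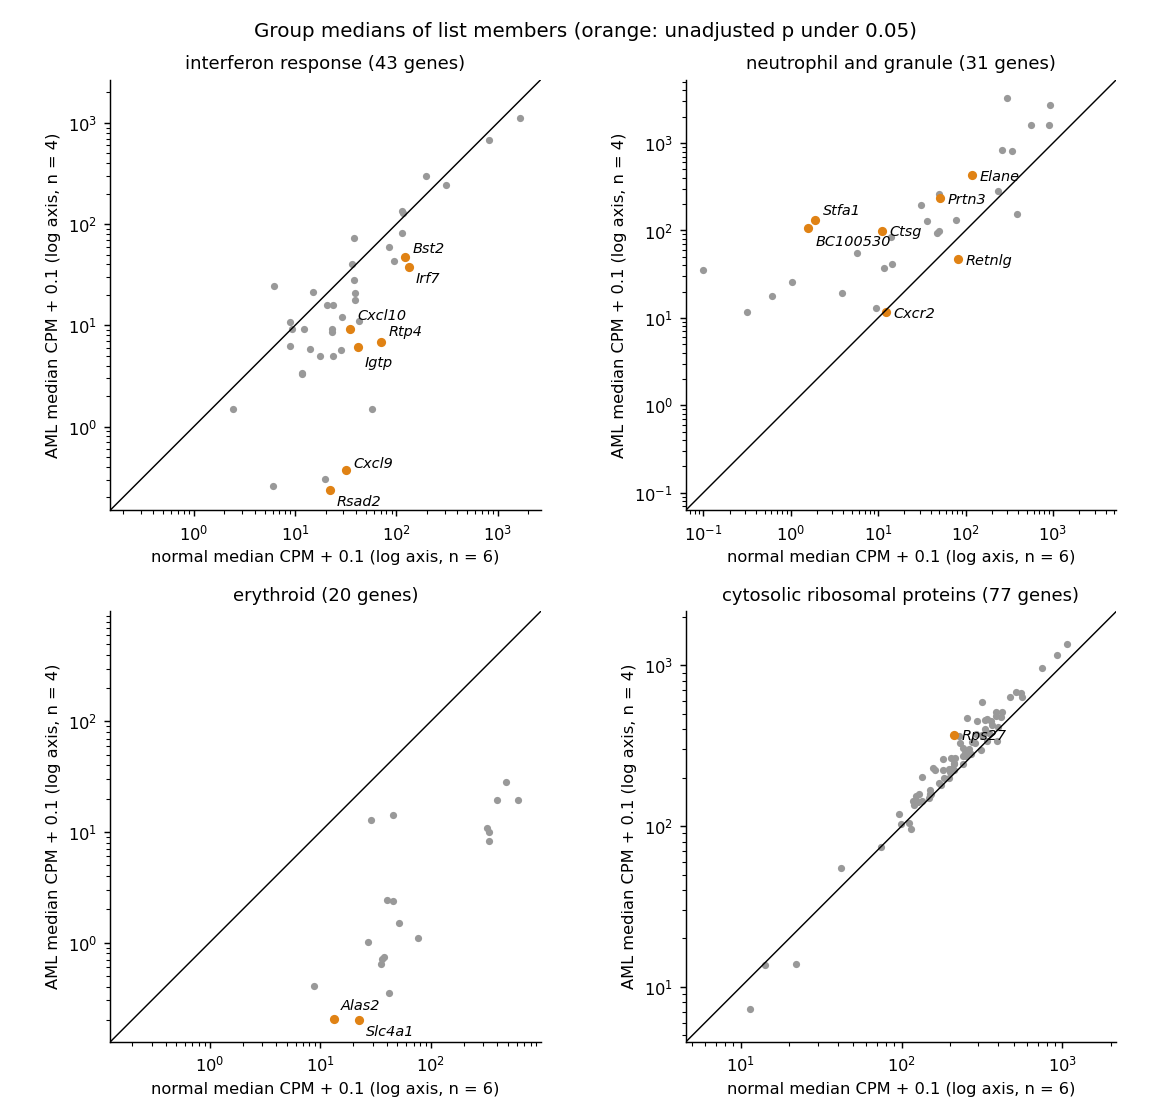
Median CPM + 0.1 in AML (n = 4) against normal (n = 6) Nes-GFP low libraries for the tested members of 4 gene lists, 1 point per gene, both axes logarithmic, with the line of equal medians and genes of unadjusted p under 0.05 in orange. Most interferon and all erythroid genes lie below the line, while neutrophil and ribosomal protein genes lie mostly above it.

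Of 21 tested genes of MHC antigen presentation, 15 were below 0 (median log2 fold change -0.45), and the 6 above 0 were class II genes, H2-Aa, H2-Ab1, H2-Eb1, H2-DMa, H2-DMb1 and Cd74, which professional antigen-presenting cells read. None of these 6 had an unadjusted p under 0.05, and they were put together after their values had been seen. The class I genes H2-Q6 and H2-Q7, which lie side by side in the MHC and share sequence, were lower at an unadjusted p under 0.05, with H2-Q6 at 33.6 to 135 CPM in AML and 81.9 to 460.1 CPM in normal mice. Over all genes tested, 1.92% were lower and 1.26% higher at that p. Among 24 chemokines and inflammatory cytokines the median was -0.71 (-0.02 with the class of Y-linked genes as a term), with Il6 higher (named after its value had been seen) and Il11, Cxcl9 and Cxcl10 lower at that p. Il11, a cytokine of the IL-6 family that stromal cells make, was at 0 to 0.339 CPM in AML and 0.688 to 10.9 CPM in normal mice, without overlap. Of 18 NF-kB regulators, none had an unadjusted p under 0.05 (median -0.05).

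All 22 pan-hematopoietic genes were above 0 (median log2 fold change 0.74), but none had an unadjusted p under 0.05, and without AML replicate 3 only 6 were above 0 (median -0.10). With the class of Y-linked genes as a term, 6 of the 22 were higher and none lower with an unadjusted p below 0.05 (median 0.95), against 2.08% of all genes higher in that fit. The libraries with high Y-linked genes are those with the highest sums of these genes. That term therefore takes out spread of the same genes within the groups, and these p-values show no difference by themselves. Of 31 neutrophil and granule genes, 5 were higher and 2 lower with an unadjusted p below 0.05, against 1.26% and 1.92% of all genes. The 5 were BC100530, Stfa1 and the granule proteases Elane, Ctsg and Prtn3. BC100530 and Stfa1 share sequence and lead this same comparison, so they do not count as 2 separate members. The 2 were Retnlg and Cxcr2. Ctsg, Prtn3 and Cxcr2 were named after their values had been seen. Of the whole list, 19 genes were above 0 and 12 below (median 0.53). That median was -1.02 without AML replicate 3 and 1.58 without normal replicate 3. Elane was at 1572, 416, 443 and 292 CPM in AML. In normal mice it was at 12.3, 16.9, 256, 214, 277 and 24.6 CPM, so that AML replicate 4 and normal replicate 5 lay close together without overlap. The log2 fold change of 2.35, with a standard error of 0.92 and an adjusted p = 0.999 in edgeR, was 1.52 without AML replicate 1. Retnlg was at 6.95, 24.5, 103 and 69 CPM in AML, at 2040 and 2923 CPM in normal replicates 3 and 4, and at 34.9 to 95.5 CPM in the other normal libraries. AML and the other 4 normal libraries thus overlapped, and with the class term the log2 fold change was -2.22 in place of -4.09. With that term, 7 of the 31 neutrophil and granule genes were higher and none lower with an unadjusted p below 0.05 (median 0.87), against 2.08% of all genes higher. The sums of these genes, too, were highest in the libraries with high Y-linked genes.

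Of 22 monocyte and macrophage genes, 21 were above 0 (median 1.26), none at an unadjusted p under 0.05. Without AML replicate 3 the median was 0.41 with 14 above 0, and without normal replicate 3 it was 2.56. With the class term, 6 were higher and none lower with an unadjusted p below 0.05 (median 1.04), against 2.08% of all genes higher in that fit. Their sums were highest in the libraries with high Y-linked genes, so the term takes out spread of these same genes. F13a1, coagulation factor XIII of monocytes and macrophages, was at 151, 1152, 1945 and 171 CPM in AML, at 774 and 156 CPM in normal replicates 3 and 4, and at 9.29 to 57.3 CPM in the other normal libraries. Genes that MLL-AF9 is known to keep on in leukemic cells did not stand out, with 11 of 19 above 0 (median 0.03). Flt3, a receptor tyrosine kinase of early progenitors, was at 194 and 167 CPM in AML replicates 2 and 3 but 0.76 and 1.69 CPM in replicates 1 and 4. In normal mice it was at 27 CPM in replicate 3 and 0 to 1.31 CPM elsewhere, and its groups overlapped (log2 fold change 4.25, standard error 1.98).

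Of 20 erythroid genes, 18 were below 0 (median -1.16, or -1.76 with the class term). Slc4a1 and Alas2 were lower with an unadjusted p below 0.05, against 1.92% of all genes. They summed to 86.5, 76.0, 176 and 10100 CPM in AML replicates 1 to 4, and to 942, 716, 2018, 4015, 10770 and 8540 CPM in normal replicates 1 to 6. AML replicates 1 to 3 were therefore below every normal library, and replicate 4 was not; without it the median was -6.32. In AML replicate 4, globin genes and the genes of the transcription factors Klf1 and Gata1 and of carbonic anhydrases were within or above the normal range, whereas Slc4a1 and Alas2 were near 0. Klf1 and Car1, for example, were at 408 and 3607 CPM there and at 4.36 to 467 and 64.1 to 2435 CPM in normal mice (these genes were chosen after their values had been seen). Alas2, the erythroid enzyme of heme synthesis, was at 0.109, 0, 0.0954 and 0.678 CPM in AML. It was at 22.1, 5.14, 1.97, 21.2, 26 and 0.205 CPM in normal mice, where replicate 6 overlapped with AML. The adjusted p was 0.999 in edgeR and 0.0012 in DESeq2.

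Of 10 tested B cell genes, 4 were lower (Iglc2, Jchain, Ighm and Igkc) and 1 higher (Cd22) with an unadjusted p below 0.05, against 1.92% and 1.26% of all genes. Iglc2, an immunoglobulin lambda constant gene, had 1 count in all AML libraries and was at 0.103 to 30.3 CPM in normal mice. Jchain, which links immunoglobulin units in plasma cells, was at 0.107 to 6.62 CPM in AML and at 130.5, 196 and 45.2 CPM in normal replicates 1, 2 and 4 but 0.789 to 1.24 CPM in the other 3. Immunoglobulin genes have many near copies, and their counts are uncertain. Cd22, a B cell inhibitory receptor, was higher, at 0.76, 12.6, 8.68 and 0.847 CPM in AML replicates 1 to 4 against 0.205 to 1.03 CPM in normal mice, which AML replicates 1 and 4 overlapped. Among 7 megakaryocyte and platelet genes (median -0.30, or 0.60 with the class term) 1 was lower at that p, and among 4 basophil, mast cell and eosinophil genes (median 0.34, or 1.2 with that term) there was none. Of 5 T and NK cell genes that could be tested, Lck, the T cell receptor kinase, had 3 counts in AML and was at 0.115 to 18.2 CPM in normal mice.

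Of 29 genes of the Lepr+ niche stroma, 28 were below 0 (median log2 fold change -1.17) and 1 had an unadjusted p below 0.05, and all 24 osteolineage genes were below 0 (median -1.20) with none under that p. Over all genes tested, 1.92% were lower at that p. Libraries of the same group differed widely. Cxcl12 was at 14590, 1248, 287 and 3921 CPM in AML replicates 1 to 4. In normal replicates 1 to 6 it was at 44120, 44110, 2452, 6107, 2926 and 10180 CPM. The highest AML library lay between the normal ones, and normal replicates 1 and 2 stood above the rest. Kitl was at 305, 27.3, 9.25 and 12 CPM in AML and 43.5 to 865 CPM in normal mice, and the leptin receptor gene Lepr at 1049, 146, 8.49 and 248 CPM and 84.3 to 2150 CPM. Log2 fold changes were -1.87 (standard error 1.17) for Cxcl12, -2.01 (1.22) for Kitl and -1.17 (1.21) for Lepr, and none had an unadjusted p under 0.05. Without AML replicate 1 they were -3.33, -4.45 and -2.60, and their values nearest to 0 without any one library were -1.39, -1.52 and -0.60, for Cxcl12 and Kitl without normal replicate 1 and for Lepr without normal replicate 2. With the niche stroma sum as a term they were -0.48, -0.73 and 0.46. Cxcl12, Kitl and Lepr are themselves part of that sum, so a shift toward 0 is built into that fit. With the pan-hematopoietic sum as a term the log2 fold changes were -0.67, -0.60 and 0.46. Gdpd2, a glycerophosphodiester phosphodiesterase gene of this list, was at 17.4 to 531 CPM in AML and 248 to 2661 CPM in normal mice and was the one with that p. Lpl, the lipoprotein lipase of the adipocyte lineage, was at 42.4 to 707 and 199.7 to 4390 CPM. Without AML replicate 1 the median of the niche stroma list was -2.35, and without normal replicate 2 it was -0.68.

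Bglap, the osteoblast hormone osteocalcin, was at 834, 10.8, 15.7 and 82.5 CPM in AML and 103 to 2504 CPM in normal mice. Phex, an endopeptidase of osteocytes, was at 1.15 to 29.6 and 2.36 to 255 CPM. Of 11 IGF and binding protein genes, 10 were below 0 (median -0.89, or -0.57 with the class term), the exception being the growth factor Igf2 at 11.1 to 51.5 CPM in AML and 0.308 to 16.4 CPM in normal mice. Of 32 TGF-beta and BMP genes (median -0.23), the secreted BMP antagonists Chrdl1 and Grem1 were lower at an unadjusted p under 0.05, against 1.92% of all genes. Chrdl1 was at 46.4 to 290.2 against 95.9 to 1918 CPM and Grem1 at 4.67 to 67.3 against 6.1 to 293 CPM, both with overlap. Of 24 Notch and Wnt genes, 17 were below 0 (median -0.22). Cartilage genes were mixed, with 14 of 18 below 0 (median -0.63). Col10a1, the collagen of hypertrophic chondrocytes, was at 0.668 CPM in AML replicate 3 with no count in the others, and at 179 and 188 CPM in normal replicates 4 and 6 against 0.807 to 7.79 CPM in the other normal libraries. Col9a3 was at 266 to 1745 CPM in AML and 913 to 3153 CPM in normal mice. Chad, the cartilage matrix protein chondroadherin, ran the other way, at 3242, 20390, 1738 and 1991 CPM in AML and 776 to 3880 CPM in normal mice. Its log2 fold change of 1.80 was 0.25 without AML replicate 2.

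Among other stromal lists, the fibroblast and tendon genes had a median of -0.47 (6 of 20 above 0), or -0.05 with the class term, with Tnmd, a tendon membrane protein, at 0 to 2.77 CPM in AML, 69.8 and 88.9 CPM in normal replicates 3 and 4 and 0.197 to 11.2 CPM in the other normal libraries. Of 8 tested Schwann and glial genes, Ncam1, the neural cell adhesion molecule, was higher in all 4 AML libraries, at 81.2, 214, 86.6 and 65.9 CPM against 2.27 to 63.3 CPM (log2 fold change 1.71 with a standard error of 0.72, and an adjusted p = 0.999 in edgeR). AML replicate 4 and normal replicate 4 lay next to each other there. Of 9 endothelial genes, 5 were above 0, and Plvap, the diaphragm protein of fenestrated and sinusoidal endothelium, was at 0.107 to 2.6 CPM in AML and 1.11 to 29.5 CPM in normal mice. Pericyte and smooth muscle genes had 7 of 11 above 0 with none under an unadjusted p of 0.05.

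Lists of cell functions were mostly near the median of all genes. Cytosolic ribosomal protein genes were above 0 for 75 of 77 members (median log2 fold change 0.41). At an unadjusted p under 0.05, 1 was higher, against 1.26% of all genes. The count above 0 held under the other scalings. It rested on AML replicate 4, whose sum was 57460 CPM against 18210 to 28100 CPM in the other AML and 14530 to 35010 CPM in the normal libraries. Without that library 20 of 77 were above 0 (median -0.13), and the median of all genes tested was -0.11. Rps27, the gene of smallest p in that list, was at 189, 375, 365 and 534 CPM in AML and 172 to 272 CPM in normal mice. The genes of the mitochondrial genome were below 0 for 11 of 13 (median -0.36), none at an unadjusted p under 0.05. mt-Nd1, a complex I subunit, was at 1105, 511, 764 and 1836 CPM in AML and 1031 to 1971 CPM in normal mice. Nuclear subunits of oxidative phosphorylation were above 0 for 40 of 75 (median 0.09) and none had an unadjusted p under 0.05. Without AML replicate 4 only 6 were above 0 (median -0.34, against -0.11 for all genes tested). Citric acid cycle genes had a median of -0.14 (15 of 33 above 0), and Cs, citrate synthase, was at 139 to 458 CPM in AML and 67.6 to 211 CPM in normal mice. Of 45 glutathione and antioxidant genes, 16 were above 0 (median -0.09), and 1 (against 1.92% of all genes) was lower at an unadjusted p under 0.05. That gene was Srxn1, which repairs peroxiredoxins, at 8.68 to 34.2 CPM in AML and 24.4 to 109 CPM in normal mice.

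Heat shock genes had a median of 0.12 (10 of 18 above 0), and the inducible chaperones Hspa1a and Hspa1b were higher at an unadjusted p under 0.05. Over all genes tested, 1.26% were higher and 1.92% lower at that p. Hspa1a was at 188, 1826, 207 and 122 CPM in AML and 43.9 to 216 CPM in normal mice, and without AML replicate 2 its log2 fold change was 0.85 in place of 2.62. Hspa1a and Hspa1b are near-identical neighbours, so that reads may be shared between them. Among 29 genes of the integrated stress response and ER chaperones (median -0.17), Mthfd2, a mitochondrial enzyme of folate metabolism, was lower at that p, at 5.42 to 31.6 CPM in AML and 14.2 to 77.4 CPM in normal mice. Cell cycle genes were below 0 for 24 of 36 (median -0.25), with 1, the replication helicase subunit Mcm4, lower at that p, at 25.8 to 90.1 and 60.2 to 217 CPM. Immediate early genes (16 of 28 above 0, median 0.10), hypoxia and glycolysis genes (17 of 31, median 0.12) and apoptosis and p53 genes (15 of 26, median 0.04) held none under that p.

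**Figure D4:**
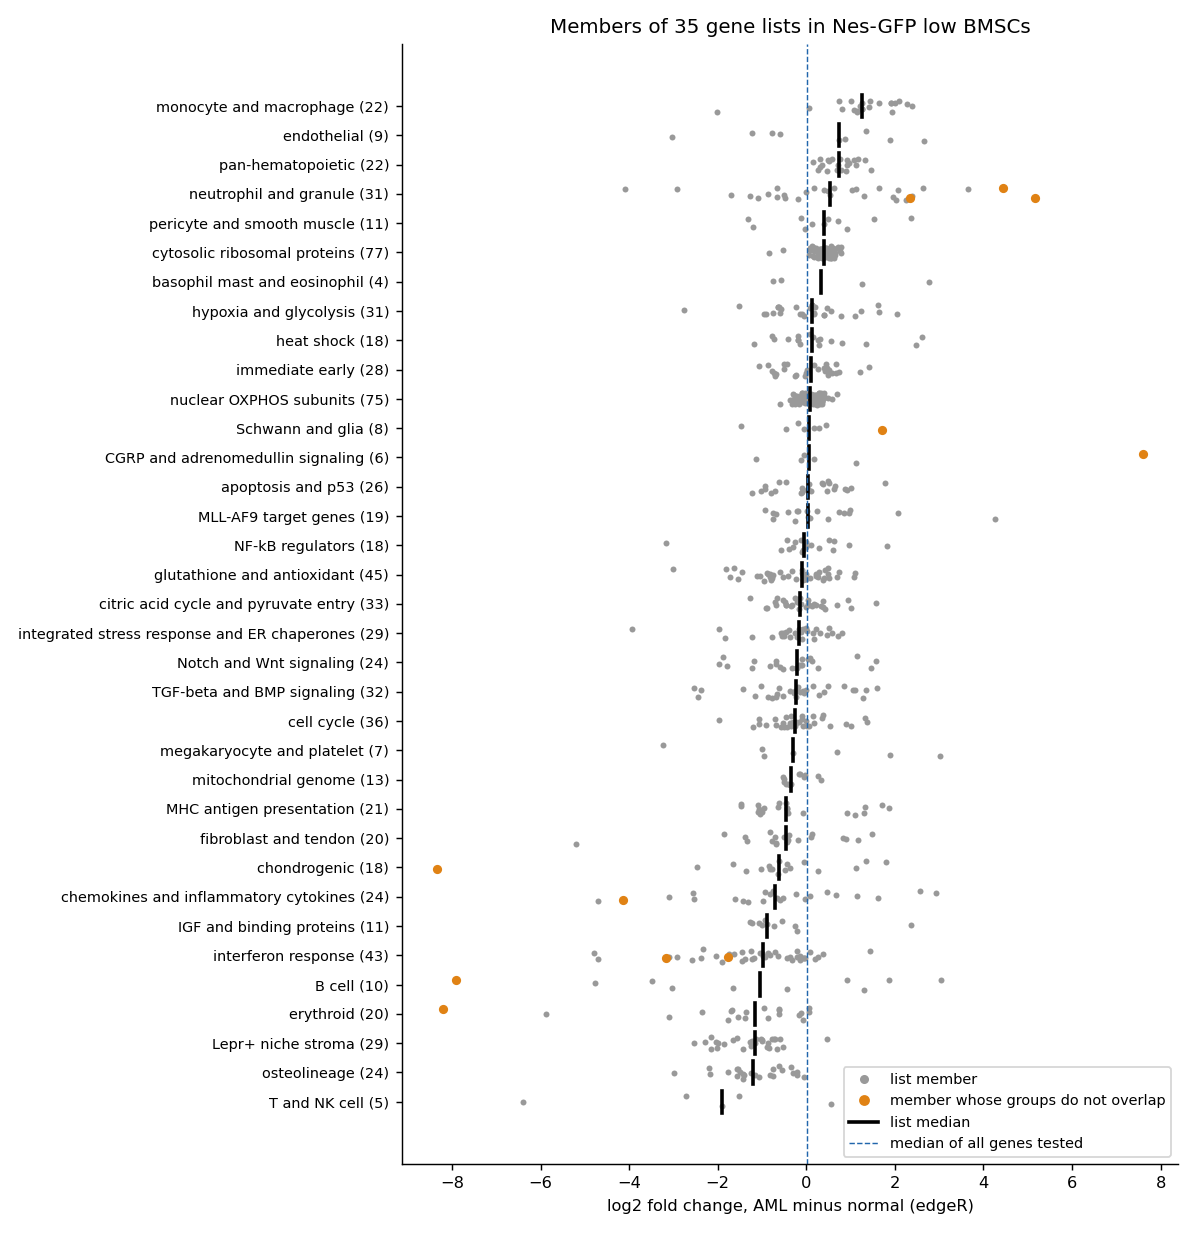
Log2 fold change (AML minus normal, edgeR) of every tested member of the gene lists, 1 point per gene, ordered by list median (black bars), with members whose groups did not overlap in orange and the median of all genes tested as a dashed line at 0.01. Medians run from -1.90 for T and NK cell genes to 1.26 for monocyte and macrophage genes, and the orange points are Calca, BC100530, Stfa1, Elane and Ncam1 on the higher side and Irf7, Igtp, Slc4a1, Iglc2, Il11 and Col10a1 on the lower.

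The Nes-GFP high libraries of the series, 2 from AML and 2 from normal mice, share no sample with the low comparison. Nothing states whether both populations came from the same mice. Of the 24 genes of smallest p in Nes-GFP low BMSCs, 21 had the same sign of log2 fold change in Nes-GFP high BMSCs, against 54.6% of all genes tested. Calca was at 196 and 53.3 CPM in leukemic mice there, against 0 and 0.717 CPM in normal mice, and BC100530 at 248 and 16.9 against 0.507 and 3.01 CPM. Irf7 was at 42.2 and 55.8 against 111 and 404 CPM, and Slc4a1 at 0 and 0.104 against 55.1 and 1.0 CPM. Steap1 went the other way than in Nes-GFP low BMSCs, at 46.8 and 0.209 against 0 and 0.717 CPM. Log2 fold changes of Pter and Abcb1a in Nes-GFP high BMSCs were near 0, at -0.30 and -0.22. An interaction of leukemia with population, fitted in edgeR over all 14 libraries, reached an adjusted p of 0.279 at the smallest among these 24 genes, and 0 of 15225 genes passed (smallest adjusted p = 0.127, 1517 genes at an unadjusted p under 0.05). DESeq2 called 762 genes in the same contrast.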

How the data were processed

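RNA from sorted Nes-GFP low and high BMSCs was amplified with Smart-seq2 and sequenced. According to the methods and the submitters' processing notes, the authors trimmed reads with Trim Galore 0.4.1, mapped them to the mouse genome (mm10) with TopHat2 2.1.0 and deposited the whole-number counts per gene that featureCounts gave with Ensembl release 86. They used DESeq2 1.14.1 for their own comparisons. Amplification can distort the levels of genes with few molecules, and without molecular identifiers a count is not a molecule, so that count intervals and the floor of 3 counts cover counting error only. Columns of the table were matched to samples by name, and 2 columns that matched no sample were not used.

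The 10 Nes-GFP low libraries, with 5615941 to 11436652 counts each, were fitted with edgeR 4.0.16 (quasi-likelihood, TMM factors, two-sided, Benjamini-Hochberg adjustment) in R 4.3.3, over genes with at least 10 counts in 4 libraries. DESeq2 1.42.0, limma 3.58.1 (voom), other scalings, filters and covariates, the replicate number as a block, and leaving out each library were alternatives. The class of Y-linked genes, a library with more Y-linked than Xist signal or the reverse, was added as a term after the data had been seen. Genes named are the 12 of smallest p and the 10 with the widest gap between groups in each direction (on log2 of CPM + 0.5), the 3 of smallest p and any without overlap in each list, and a few fixed genes such as Nes, Cxcl12 and Calca; gene models without a gene name are counted only. The members and gene lists were chosen with earlier results of these data known. Genes were placed by symbol in GENCODE M21 (GRCm38), with 26015 of 27086 symbols found, and promoters are from RefSeq. The edgeR fit of AML against normal was tested on simulated data with known changes, and the other fits were not. No 2 libraries of a group were alike enough to be copies of one another. Libraries were not compared by sex beyond the class above, and Nes-GFP high libraries enter only the last comparison and the fit on all 14 libraries. One gene among those of smallest p is counted but not reported here.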

Additional observations from a re-analysis of the deposited data

Results flagged for a closer look

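A single library far from the others was sought in 140 groups of 4 or 6 libraries. Most of these groups were those of the 68 genes whose fold changes were followed. In all, 13 were found, where chance gives about 1 in 20 for normally distributed values. Several flagged levels rest on a few counts, so the number found shows no excess by itself. In AML, Coch stood at 2535 CPM in replicate 2, and Ticam2 at 3.91 CPM and Cxcl9 at 9.34 CPM in replicate 1. AML replicate 3 stood apart for Rsad2 (3.43 CPM), Mthfd2 (31.6 CPM), Col10a1 (0.668 CPM), Lck (0.286 CPM) and Iglc2 (0.0954 CPM), the last 3 with no count in the other AML libraries. AML replicate 4 was the low one for Slc4a1, at 0 CPM, a gap of 1 count from the rest. In normal mice, replicate 3 stood apart for Ticam2 (5.79 CPM), Aspg (6.21 CPM) and Flt3 (27.0 CPM), and replicate 1 for Igkv12-46 (1131 CPM).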

How the results depend on the processing

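No gene passed the threshold in edgeR under the other scalings, filters, dispersions and planned covariates, in voom, or without any one library. DESeq2 called 11 genes higher and 67 lower, and 54 higher and 96 lower with its beta prior on all 14 libraries without a filter. The class of Y-linked genes, added after the data had been seen, gave 2 higher and 0 lower in edgeR and 77 higher and 109 lower in DESeq2. The cause of these differences was not tested. Counts of genes without overlap were 104 higher and 130 lower with no filter on low counts, and ranged from 71 to 161 higher and from 111 to 325 lower when each library was left out, where fewer libraries make overlap less likely by construction. The interaction with the Nes-GFP high population gave 762 genes in DESeq2 and 0 to 223 in edgeR when a library was left out, 223 of them without normal Nes-GFP high replicate 2. The difference in genes detected (AML minus normal) ranged from -258.5 to 177.2 without single libraries, was 9.7 without normal replicate 3 and 69.1 without normal replicate 4, and was 207.8 for genes of at least 1 CPM, where the exact permutation p was 0.6857. Lepr is itself part of the niche stroma sum. Its log2 fold change turned to 0.4574 with that sum and to 0.4604 with the pan-hematopoietic sum as a term. Of 1674 fold changes of 68 genes under all alternatives, these 2 reversed, 89 passed the threshold where the main one did not, and 1583 kept direction and call. With the replicate number as a block, 0 genes were called, and an unadjusted p below 0.05 was reached by 242 genes as higher and by 590 as lower. Same-numbered libraries correlated at 0.26, 0.078, 0.41 and -0.137 in their deviations from group means. Libraries with different numbers correlated at -0.274 to 0.351. Ranges this wide cannot decide whether the numbers pair the samples. Levels under 0.281 to 0.508 CPM, by library, rest on fewer than 3 counts.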
